A study of Sus scrofa with 32 samples.

Results

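The genes of fatty acid synthesis, storage and oxidation were followed in the endometrium of gilts on Day 14, and 44 of the 30185 counted genes belonged to this group. They were found by matching their pig gene symbols to the NCBI gene numbers of the count tables. All 44 symbols were found. The members were ordered by role into de novo synthesis (5 genes), desaturation and elongation (7), activation to acyl-CoA (4), carnitine import and beta-oxidation (12), nuclear receptors and a coactivator (5), uptake and binding (4), and storage and lipolysis (7).

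Laser capture microdissection took 4 compartments from endometrial sections, the luminal epithelium (LE), the glandular epithelium (GE), the blood vessels (BV) and the stroma (S). The 4 cyclic gilts had been inseminated with the supernatant of centrifuged semen and the 4 pregnant gilts with semen. Tissue of the pregnant gilts came from hyperemic zones, where embryos attach, once the conceptus was taken off. No such site is described for the cyclic gilts, so site and pregnancy cannot be told apart. The library labels join C or P for the group, a letter for the compartment and the number of the gilt, so that the LE libraries are CL128, CL40, CL42 and CL78 from cyclic and PL139, PL39, PL41 and PL43 from pregnant gilts, and values are given in this order throughout. Ovulation was induced in both groups with eCG and hCG, and the samples were taken on Day 14. Each gilt gave 1 library for each compartment. The GE library PG41 was not analysed here, which left n = 3 for GE in pregnancy and n = 4 for the other groups. Every capture is a bulk of many cells, in which fewer cells of a type and less RNA per cell cannot be told apart.

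As background, fatty acids are built in the cytosol from acetyl-CoA, which ATP citrate lyase (ACLY) releases from citrate, acetyl-CoA carboxylase (ACACA, ACACB) carboxylates and fatty acid synthase (FASN) condenses. Elongases of the ELOVL family lengthen the chains, and the desaturases SCD, FADS1 and FADS2 insert double bonds, FADS1 and FADS2 on the path to arachidonic acid, the precursor of prostaglandins. Fatty acids are activated to acyl-CoA by the ACSL enzymes and are then either esterified and stored in lipid droplets or carried into mitochondria with the help of carnitine for beta-oxidation. The PPAR receptors pair with RXRA and respond to fatty acids. Prostaglandins of the endometrium act in the maternal recognition of pregnancy in the pig.

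The libraries held 2415216 to 7081556 counts (median 3624021). The filtered tables of the authors, whose genes are called detectable, held 39 of the 44 members for LE, 39 for GE, 39 for BV and 42 for S, and 36 members in all 4 compartments. Epithelial marker genes (6 genes) summed to 2586 to 3165 CPM in cyclic and 2169 to 2436 CPM in pregnant LE, without overlap. They reached 1363 to 1726 CPM in GE, against 2.56 to 423 CPM in BV and S. The 6 genes did not move together in LE. Their mean CPM went, cyclic to pregnant, from 1022 to 335 (KRT8), 204 to 73.8 (KRT18) and 224 to 20.0 (KRT19). EPCAM went from 304 to 271 CPM, while CDH1 went up from 855 to 1165 and CLDN4 from 282 to 434 CPM. LE also held markers of other cells, with 4097 to 16514 CPM of fibroblast, 124 to 989 CPM of endothelial and 165 to 742 CPM of smooth muscle markers, against 2877 to 7533, 15.6 to 174 and 5.24 to 168 CPM in GE. Endothelial markers in LE summed to 124 to 704 CPM in cyclic and 404 to 989 CPM in pregnant gilts, with overlap. Endothelial markers (6 genes) summed to 1447 to 2970 CPM in BV against 503 to 2708 CPM in S, and fibroblast markers (6 genes) to 25082 to 91087 CPM in BV against 36616 to 106304 CPM in S. Epithelial markers in BV summed to 2.56 to 45.3 CPM in cyclic and 149 to 271 CPM in pregnant gilts, and smooth muscle and pericyte markers (6 genes) to 5203 to 16366 CPM and 770 to 6785 CPM. Leukocyte markers (6 genes) in LE summed to 35.5 to 70.2 CPM in cyclic and 71.7 to 102 CPM in pregnant gilts. In GE they summed to 17.6 to 26.0 CPM and 31.3 to 37.5 CPM. The mean of LYZ in LE went from 5.44 to 21.2 CPM, of PTPRC from 25.9 to 31.2 and of CD3E from 1.38 to 1.56. CD163 went there from 19.3 to 29.3 CPM and CD68 from 2.28 to 5.35, while MS4A1 had no count in LE or GE. In GE PTPRC went from 8.17 to 19.8 CPM and CD68 from 1.82 to 2.72, against 5.70 to 5.86 for CD163, 5.75 to 5.92 for LYZ and 0.384 to 0.340 for CD3E. The part of these shifts in the results below was not tested. The 4 adipocyte markers together stayed at or below 0.899 CPM in every library. Of the 4 markers of the conceptus that were found, the interleukin IL1B2 and the aromatase CYP19A1 had no count in any library. CYP19A3 reached at most 2.05 CPM, in CL78. The list summed to at most 9.92 CPM, in PL43, all of it from the interferon IFNG. Mean IFNG in LE was 0.210 CPM in cyclic and 2.97 CPM in pregnant gilts, and its highest value in S was 2.72 CPM, in PS43.

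The levels of the members were first set side by side per kilobase of exon, as mean CPM per kb ± SD over the gilts of both groups. Within de novo synthesis ACLY had the highest level in each compartment, at 37.6 ± 13.2 CPM per kb in LE and 34.7 ± 22.7 in GE, against 13.9 ± 3.36 in BV and 14.8 ± 4.20 in S. Among the desaturases and elongases, ELOVL7, an elongase of saturated and polyunsaturated chains, led in LE with 54.7 ± 20.0 CPM per kb and in GE with 79.9 ± 24.3. In BV and S the leading gene of this role was FADS2, the delta-6 desaturase, with 38.7 ± 5.14 and 37.7 ± 6.66 CPM per kb. The acyl-CoA synthetase with the highest level was ACSL3, an enzyme of lipid droplets and the endoplasmic reticulum, in GE (80.8 ± 37.4 CPM per kb) and ACSL4, which prefers arachidonic acid, in LE (35.8 ± 24.4), BV (18.4 ± 3.37) and S (17.5 ± 4.09).

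ECHS1, the enoyl-CoA hydratase of beta-oxidation, was the highest gene of its role in every compartment, from 40.1 ± 7.62 CPM per kb in S to 87.2 ± 14.9 in GE. PPARA led the nuclear receptors in all 4 compartments, with 20.5 ± 5.20 CPM per kb in GE and between 7.54 ± 2.72 and 8.96 ± 4.29 elsewhere. The leading gene of uptake and binding changed with the compartment. It was the fatty acid binding protein FABP3 in LE (25.8 ± 19.5 CPM per kb), its relative FABP5 in BV (60.0 ± 28.1), and lipoprotein lipase, LPL, in S (34.6 ± 8.61) and in GE (4.89 ± 1.95). Of storage and lipolysis, PNPLA2, the first lipase of triglyceride breakdown, was highest in LE (18 ± 10.1) and GE (19.3 ± 3.96), MGLL, the monoglyceride lipase, in BV (21.6 ± 12.8), and the droplet coat protein PLIN2 in S (11.3 ± 4.41). The models of FADS1, ACADL, ACAA2 and PPARA begin at the coding start, which makes their lengths short and their levels per kb high.

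**Figure D1:**
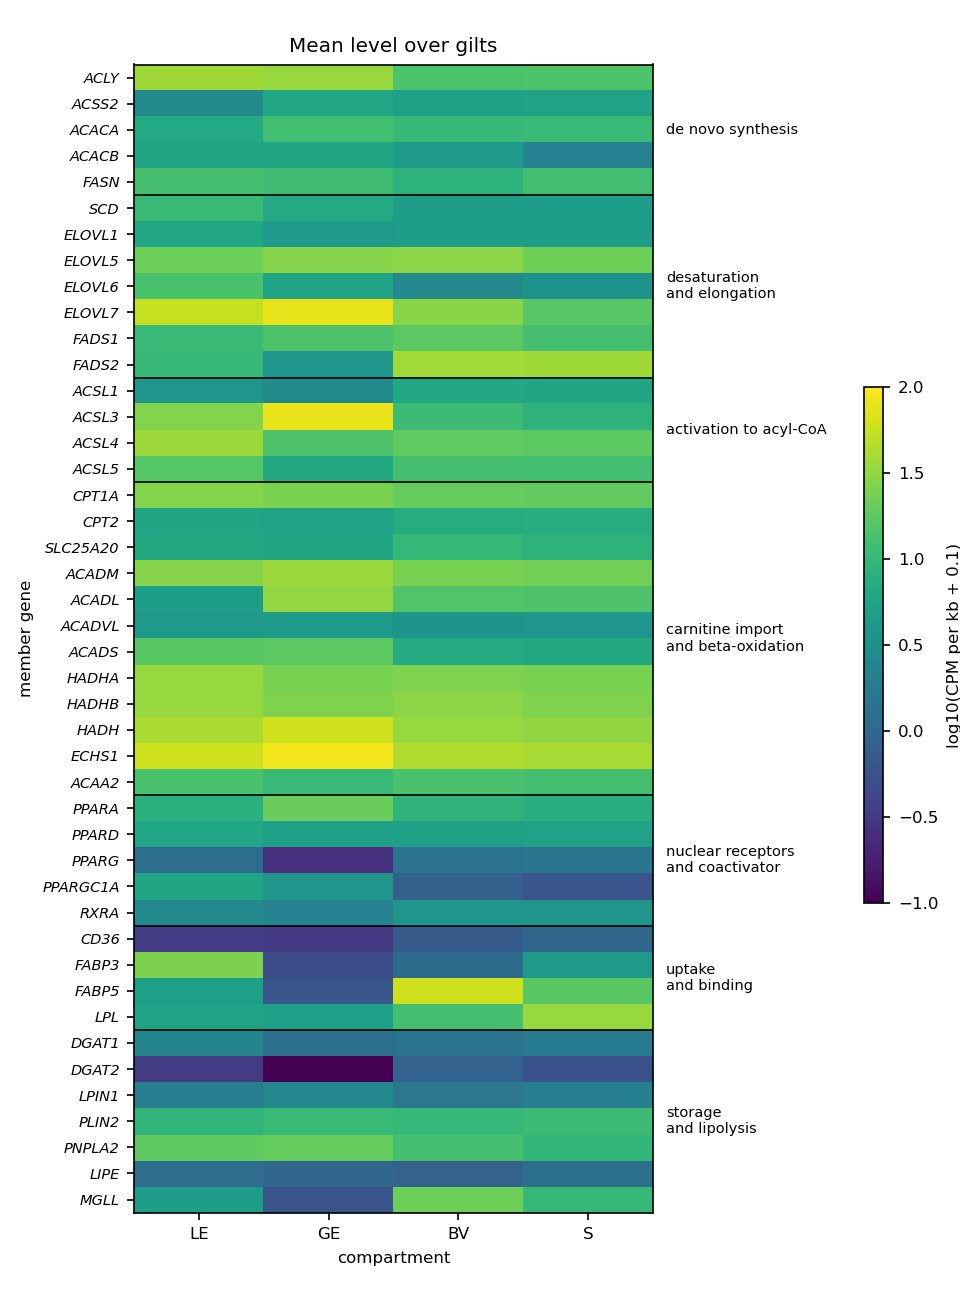
Heat map of the mean level of each of the 44 members (rows, grouped by role) in LE, GE, BV and S (columns), as log10 of CPM per kilobase of exon with 0.1 added, over the gilts of both groups. ECHS1, ELOVL7 and ACSL3 are brightest in GE and FABP5 in BV, while DGAT2 has no count in GE.

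DGAT2, an acyltransferase of triglyceride synthesis, had the lowest level of its role in LE (0.235 CPM per kb), in S (0.477) and in GE, where all 7 libraries had 0 counts. In BV, at 0.782 CPM per kb, it lay above CD36 (0.650), PPARGC1A (0.729) and the hormone-sensitive lipase LIPE (0.780). A DGAT2-like gene (LOC110259135) on an unplaced sequence had 34 counts in all libraries against 57 for DGAT2, and reads of such copies can be split. The adipocyte receptor PPARG stayed between 0.156 CPM per kb in GE and 1.41 CPM per kb in S.

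Levels were then compared between compartments in a joint fit of all libraries with the gilt as a block, at a false discovery rate of 1%, over 13887 genes and 43 members. Between LE and GE, 12 members were higher in LE, where 25.9% of all genes were, and 7 were higher in GE, where 15.5% of all genes were. The median log2 difference was 0.21 over the members and 0.13 over all genes. LE exceeded GE in FADS2 (log2 difference 1.56, SE 0.26, adjusted p = 3.23e-05), ELOVL6, which elongates palmitate (1.55, SE 0.26), ACSL4 (1.03, SE 0.19) and MGLL (3.32, SE 0.40). ACADL, the long-chain acyl-CoA dehydrogenase, was lower in LE than in GE (-2.64, SE 0.22, adjusted p = 6.34e-09), as were ACSL3 (-1.69, SE 0.31), PPARA (-1.37, SE 0.29) and ACSS2, which makes acetyl-CoA from acetate (-1.25, SE 0.19). With the cyclic gilts alone FADS2, ELOVL6, ACSL4 and PPARA were not called between LE and GE, and with the pregnant gilts alone ACSL3 and ACSS2 were not. The mean level of ACSL4 was 16.0 CPM per kb in LE and 14.8 in GE in the cyclic gilts, and 55.6 and 14.2 in the pregnant gilts. MGLL and FADS2 were also higher in S than in GE, and the part of the fibroblast, endothelial and smooth muscle markers of LE in their difference was not tested. Among the LE libraries ACSL3 stood at 509 CPM in CL128 and at 68.6 to 146 CPM in the other 7. FABP3 and PPARG were also called higher in LE. FABP3 had at most 3 counts in a GE library against 4 to 176 in an LE library, and PPARG at most 7 counts in a GE library, so no fitted fold is given. MGLL, too, was low in GE, with 4 to 31 counts in a library.

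Between BV and S only 2 members were called, where 7.19% of all genes were, and both belong to uptake and binding. FABP5 was higher in BV (log2 difference 1.89, SE 0.30, adjusted p = 0.000236) and LPL in S (-1.50, SE 0.24, adjusted p = 0.000212). FABP5 had 53.1, 71.9, 47.2 and 22 CPM in BV of the cyclic gilts and 42, 24.6, 31.1 and 19.9 CPM in BV of the pregnant gilts. In S the same gilts had 27.9, 10.2, 9.0 and 5.70 CPM and 4.10, 19.3, 5.90 and 9.77 CPM. In each of the 8 gilts the BV library was above the S library. In the cyclic gilts alone FABP5 was not called, and in the pregnant gilts alone neither gene was.

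Between LE and S, 16 members were higher in LE, where 26.7% of all genes were, and 11 in S, where 23.9% were, with a median log2 difference of 0.15 over the members and 0.04 over all genes. PPARGC1A, the coactivator of PPAR receptors and of mitochondrial genes, showed the largest difference toward LE (3.32, SE 0.38, adjusted p = 2.22e-07), before ELOVL6 (2.08, SE 0.25), ELOVL7 (1.70, SE 0.23), ACSL3 (1.62, SE 0.31) and ACLY (1.33, SE 0.12). FABP3 was also called higher in LE, but it had 2 to 12 counts in an S library, so no fitted fold is given. S exceeded LE in LPL (-3.00, SE 0.25), FADS2 (-1.92, SE 0.22), ACADL (-1.66, SE 0.21) and MGLL (-1.02, SE 0.30). FABP5 was also called higher in S, with 18 to 147 counts in an S library. It was below the filter in LE, so no fitted fold is given. With the gilts of 1 group only, 12 members were called in cyclic and 17 in pregnant gilts. In the cyclic gilts alone FABP3, FABP5 and MGLL were not called, and in the pregnant gilts alone MGLL and ACSL3 were not. MGLL was also lost without the gilt of CL128, CL40, CL78, PL39 or PL41. FABP3, FABP5 and MGLL were not detectable in all 4 compartments and dropped out of the fit over the genes that were.

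Between GE and S, 12 members were higher in GE, where 27.9% of all genes were, and 10 in S, where 31.4% were, with a median log2 difference of -0.05 over the members and -0.03 over all genes. GE exceeded S in ACSL3 (3.30, SE 0.34), PPARGC1A (3.07, SE 0.39), ELOVL7 (2.23, SE 0.24), PPARA (1.46, SE 0.29), the short-chain dehydrogenase ACADS (1.45, SE 0.16) and ACACB (1.43, SE 0.31). All 5 called genes of carnitine import and beta-oxidation (ACADM, ACADL, ACADS, HADH and ECHS1) were higher in GE. In the cyclic gilts alone PPARA and ACACB were not called, and in the pregnant gilts alone ACADL and ACADM were not. ACADM was also lost without the gilt of CL40, PL39 or PL43. The 4 genes of uptake and binding were all called higher in S, among them LPL (-2.92, SE 0.27), and so were MGLL (-4.34, SE 0.40) and FADS2 (-3.48, SE 0.26). The other genes of uptake and binding, CD36, FABP3 and FABP5, and MGLL were not detectable in all 4 compartments. They dropped out of the fit over the genes that were. FABP5 had 0 to 5 counts in a GE library against 18 to 147 in an S library, so no fitted fold is given. FABP3 had 0 to 3 counts in a GE library and 2 to 12 in an S library, and it was called in neither group of gilts alone. MGLL had 4 to 31 counts in a GE library. MGLL shares 835 exon bases with ABTB1 and FADS2 148 with LOC100739565, both on the opposite strand, and whether the counting used the strand is not given in the sources used here.

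Pregnant and cyclic gilts were next compared within each compartment. Following the study's rule, DEGs in LE had a false discovery rate of up to 1%. In the other 3 compartments the threshold was the largest unadjusted p of a DEG in LE, 0.000328. LE had 4 DEGs among 39 detectable members, beside 3.32% of all its genes. GE had 3 of 39, beside 0.748% of all genes. BV had 2 of 39, beside 1.86% of all genes, and S had 0 of 42, beside 0.293%. LE showed lower FADS1 and SCD and higher PNPLA2 and ELOVL6 in pregnancy, GE lower FASN and FADS1 and higher CD36, and BV lower FADS1 and higher PNPLA2. At a false discovery rate of 1% none of the members would be called in GE or BV. The median log2 fold change of the members was 0.05 in LE, beside -0.01 for all genes, and -0.12 in GE, beside -0.01. It was 0.00 in BV and 0.16 in S, where all genes had 0.00.

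Counts of DEGs depended on the test. The likelihood ratio test of edgeR's robust GLM, the test of the study's methods, called 9 members for LE (11.8% of all genes), 7 for GE (6.66%), 6 for BV (11.0%) and 1 for S (3.16%). DESeq2 called 9 (11.2%), 7 (6.64%), 5 (8.5%) and 0 (2.6%) for the same compartments. Both called all of the quasi-likelihood DEGs and, in addition, ACACB, FASN, ACSL4, PPARGC1A and PLIN2 in LE, ACLY, ACACB, ELOVL6 and ACSL3 in GE, and ACACB, SCD and PPARA in BV. In S, 9 of 42 members had an unadjusted p under 0.05, 8 of them with a positive fold change, where 14.5% of all genes had such a p.

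**Figure D2:**
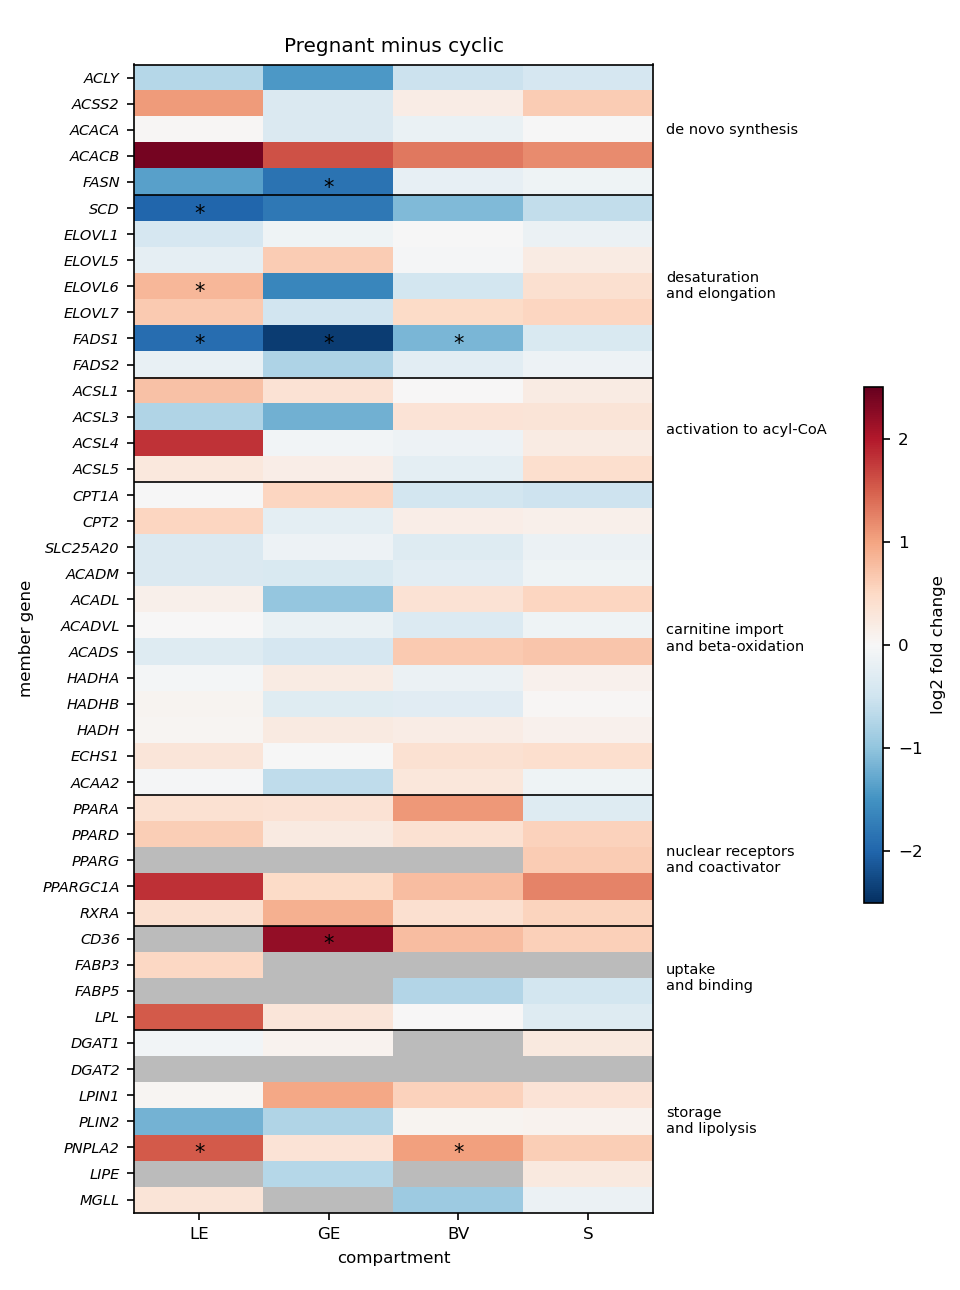
Heat map of log2 fold changes, pregnant minus cyclic, for the 44 members (rows, grouped by role) in LE, GE, BV and S (columns), with a star on the DEGs of the quasi-likelihood test and grey where a member was not detectable. The 9 stars lie on FADS1 (LE, GE and BV), PNPLA2 (LE and BV), SCD and ELOVL6 (LE), FASN and CD36 (GE).

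FADS1, the delta-5 desaturase that forms arachidonic acid (gene 444995, chr2:9735425-9747405, plus strand), was the only member called in 3 compartments. In LE it had 22.7, 23.9, 20.3 and 19.4 CPM in the cyclic gilts and 4.59, 7.08, 5.98 and 5.21 CPM in the pregnant gilts. The values in GE were 36.2, 24.2, 29.2 and 34.7 CPM in cyclic and 5.51, 4.20 and 8.43 CPM in pregnant gilts (libraries PG139, PG39 and PG43). In LE and GE every cyclic value was thus more than 2 times the highest pregnant one. FADS1 fell by 1.91 on the log2 scale in LE (SE 0.21, adjusted p = 0.00160, edgeR quasi-likelihood) and by 2.37 in GE (SE 0.29, adjusted p = 0.0276), and both calls stood without any single library.

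In BV, FADS1 stood at 30.4, 27.2, 35.4 and 28.9 CPM in cyclic and 15.9, 12.3, 15.7 and 11.0 CPM in pregnant gilts, again without overlap. It fell by 1.15 (SE 0.18, adjusted p = 0.0160), and the call was lost without library CB128, CB42, PB39 or PB43 (unadjusted p = 0.000415 to 0.000537). In S, with 22.2, 18.7, 19.1 and 15.2 CPM in cyclic and 7.52, 20.1, 18 and 12.5 CPM in pregnant gilts, the groups overlapped (log2 fold change -0.38, SE 0.30). FADS2, which acts before FADS1 on the same path and lies near it (chr2:9633941-9666666, minus strand), was not a DEG, with log2 fold changes between -0.76 in GE and -0.13 in S.

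SCD, the delta-9 desaturase that makes oleic acid (gene 396670, chr14:111461560-111478033, plus strand), had 97.7, 118, 98.4 and 83.4 CPM in LE of the cyclic gilts and 29.2, 16.7, 16.6 and 38.4 CPM in LE of the pregnant ones. The groups lay far apart, and SCD fell by 1.99 (SE 0.29, adjusted p = 0.00416). Without library CL40, CL42, PL139 or PL39 the adjusted p was 0.0133 to 0.0164 and the call was lost. In BV, where only the robust GLM and DESeq2 called it, SCD had 47.4, 25.8, 41.6 and 31.0 CPM in cyclic and 19.6, 16.6, 20.5 and 11.4 CPM in pregnant gilts, without overlap (log2 fold change -1.10, SE 0.25). In GE, library CG128 stood apart with 144 CPM, while the other cyclic gilts (24.2 to 43 CPM) overlapped with the pregnant ones (13.3 to 26.5 CPM). The cyclic values in S, 9.55 to 54.8 CPM, enclosed the pregnant ones, 13.8 to 34.8 CPM.

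ELOVL6 (gene 100312970, chr8:112038670-112190079, plus strand) had fold changes of opposite sign in LE and GE. The interaction test of LE against GE did not call this difference (adjusted p = 0.0182). In LE it had 50.7, 51.9, 57.8 and 49.1 CPM in cyclic and 84.8, 112, 85.4 and 89.5 CPM in pregnant gilts, and all pregnant values lay above the cyclic ones. It rose by 0.82 (SE 0.15, adjusted p = 0.00933), close to the threshold, and leaving out any 1 of the 8 libraries ended the call (adjusted p = 0.0166 to 0.0312). In GE it had 84.3, 41.9, 23.3 and 30.1 CPM in cyclic and 9.11, 16.0 and 18.5 CPM in pregnant gilts (log2 fold change -1.64, SE 0.48), called by the robust GLM and DESeq2 only. The other 3 elongases, ELOVL1, ELOVL5 and ELOVL7, were not called in any compartment, and their log2 fold changes lay between -0.47 (ELOVL7 in GE) and 0.65 (ELOVL7 in LE).

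**Figure D3:**
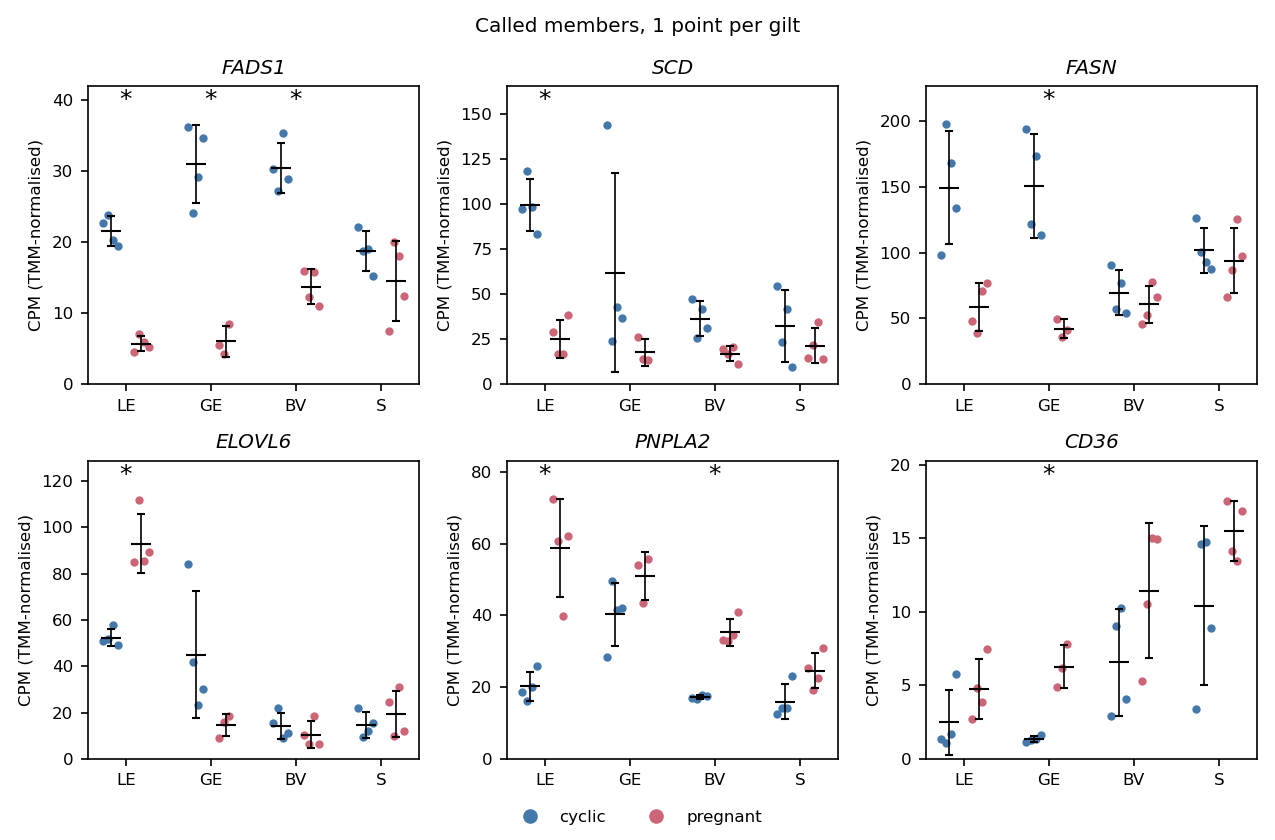
TMM-normalised CPM of the 6 members called by the quasi-likelihood test, 1 point per gilt, cyclic in blue and pregnant in red, with mean and SD (black), in each compartment (normalised within it). Stars mark the calls. FADS1 is lower in pregnant LE, GE and BV without overlap, and PNPLA2 is higher in pregnant LE and BV.

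The sequence before the annotated start was read for the called members whose gene model begins at least 100 bases before the coding start, so that the window is not taken from within the transcript. FADS1, whose model begins at the coding start, and FASN, whose model begins 13 bases before it, are therefore named only. Shown are the 250 bases before the start of SCD (chr14:111461310-111461559, plus strand), which fell in LE, and of ELOVL6 (chr8:112038420-112038669, plus strand) and PNPLA2 (chr2:512815-513064, plus strand), which rose there, 5′ to 3′ from Sscrofa11.1, with matches of the searched motifs in capitals.
SCD: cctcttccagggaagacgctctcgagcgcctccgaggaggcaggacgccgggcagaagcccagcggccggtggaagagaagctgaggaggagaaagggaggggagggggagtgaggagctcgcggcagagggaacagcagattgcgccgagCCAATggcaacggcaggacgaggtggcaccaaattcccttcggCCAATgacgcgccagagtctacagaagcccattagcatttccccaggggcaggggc
ELOVL6: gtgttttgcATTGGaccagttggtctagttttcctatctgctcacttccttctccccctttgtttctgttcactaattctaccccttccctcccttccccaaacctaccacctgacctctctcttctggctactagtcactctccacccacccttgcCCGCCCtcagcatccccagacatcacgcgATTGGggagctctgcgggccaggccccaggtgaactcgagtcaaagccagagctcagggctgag
PNPLA2: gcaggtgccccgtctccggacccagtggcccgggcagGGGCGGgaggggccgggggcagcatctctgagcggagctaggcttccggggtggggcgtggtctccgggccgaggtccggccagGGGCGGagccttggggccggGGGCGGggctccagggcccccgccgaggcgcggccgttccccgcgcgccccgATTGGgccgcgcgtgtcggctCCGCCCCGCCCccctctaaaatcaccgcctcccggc

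Searched on both strands were the sterol regulatory element TCACCCCAC, the CCAAT box (CCAAT), the E-box CACGTG, the GC box GGGCGG and the PPAR element of the DR1 type, 2 copies of AGGTCA with any 1 base between them. None of these motifs contains another, and matches that share bases were counted separately. Of 19561 promoters of the same length, 31.9% held a CCAAT box, 46.0% a GC box, 6.4% an E-box, 0.363% the sterol regulatory element and 0.0256% the DR1 element. SCD had 2 CCAAT boxes, beginning 99 and 56 bases before the start. ELOVL6 held CCAAT boxes that begin 241 and 64 bases before the start and a GC box 93 bases before it. PNPLA2 had a CCAAT box 57 bases before the start and 5 GC boxes, the last 2 of which share a base. The other motifs were not in these windows, which says nothing of the factors that bind them, and no motif was in the window of CD36, whose outermost start lies 54370 bases before the coding start.

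In de novo synthesis, FASN (gene 397561, chr12:922405-937560, plus strand) was called in GE. There it had 194, 122, 173 and 113 CPM in cyclic and 49.8, 35.6 and 40.8 CPM in pregnant gilts, with a wide gap between the groups. It fell by 1.84 (SE 0.25, adjusted p = 0.0296), and without library PG39 or PG43 the unadjusted p was 0.000578 or 0.000579 and the call was lost. In LE FASN had 98.5, 198, 168 and 134 CPM in cyclic and 48.1, 38.6, 71.0 and 77.1 CPM in pregnant gilts, also without overlap, but the quasi-likelihood test did not call it (log2 fold change -1.35, SE 0.28, adjusted p = 0.0179). In BV and S the groups overlapped, with means of 69.7 ± 17.3 CPM (cyclic) and 60.8 ± 14.1 CPM (pregnant) in BV and of 102 ± 17.2 and 94.1 ± 24.9 CPM in S (± SD, n = 4).

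ACACB, the carboxylase at the mitochondrial membrane whose malonyl-CoA restrains CPT1A, was a DEG of the robust GLM and of DESeq2 in 3 compartments and of the quasi-likelihood test in none. In LE it had 6.07, 18.3, 32.9 and 7.91 CPM in cyclic and 159, 44.4, 57.8 and 80.0 CPM in pregnant gilts (log2 fold change 2.39, SE 0.58, adjusted p = 0.0313). In GE the values were 13.1, 34.6, 41.6 and 23.8 CPM in cyclic and 111, 73.1 and 70.7 CPM in pregnant gilts (1.59, SE 0.37, adjusted p = 0.0689). The groups did not overlap in either epithelium, but the cyclic gilts differed more than 5-fold among themselves in LE.
In BV, library CB78 (33.0 CPM) stood apart from the other cyclic gilts (14.7, 14.7 and 13.0 CPM), and the pregnant gilts had 67.3, 40.5, 35.9 and 43.4 CPM (1.33, SE 0.33, adjusted p = 0.0394). Without CB78 the quasi-likelihood test called ACACB in BV, at 1.72 (unadjusted p = 6.46e-05). In S, where only the robust GLM called it, the range was 6.12 to 12.4 CPM in cyclic and 8.17 to 33.1 CPM in pregnant gilts, with overlap.

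Its cytosolic counterpart ACACA was not called, with log2 fold changes between -0.36 in GE and 0.04 in LE. ACLY, with negative fold changes in all 4 compartments, was a DEG of both other tests in GE, where it had 377, 166, 213 and 151 CPM in cyclic and 67.8, 79.5 and 104 CPM in pregnant gilts, without overlap (-1.44, SE 0.35, adjusted p = 0.0733). Its range in LE was 157 to 268 CPM in cyclic and 108 to 142 CPM in pregnant gilts (-0.70, SE 0.21). ACSS2 in LE had 5.35 ± 2.18 CPM in cyclic and 11.3 ± 3.02 CPM in pregnant gilts, without a call.

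None of the 4 acyl-CoA synthetases was called by the quasi-likelihood test. In LE, ACSL4 had 30.4, 114, 127 and 106 CPM in cyclic and 260, 247, 346 and 462 CPM in pregnant gilts (log2 fold change 1.80, SE 0.41, adjusted p = 0.0254). The groups did not overlap, and CL128 was the lowest library. Without it the adjusted p was 0.00841 and ACSL4 was called. In GE, BV and S the values of ACSL4 lay within 67.8 to 144 CPM in both groups. ACSL3 in GE had 818, 657, 522 and 520 CPM in cyclic and 337, 243 and 239 CPM in pregnant gilts, a gap without overlap (-1.21, SE 0.24, adjusted p = 0.0497), and both other tests called it there. For ACSL1 and ACSL5 no test called a difference in any compartment.

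**Figure D4:**
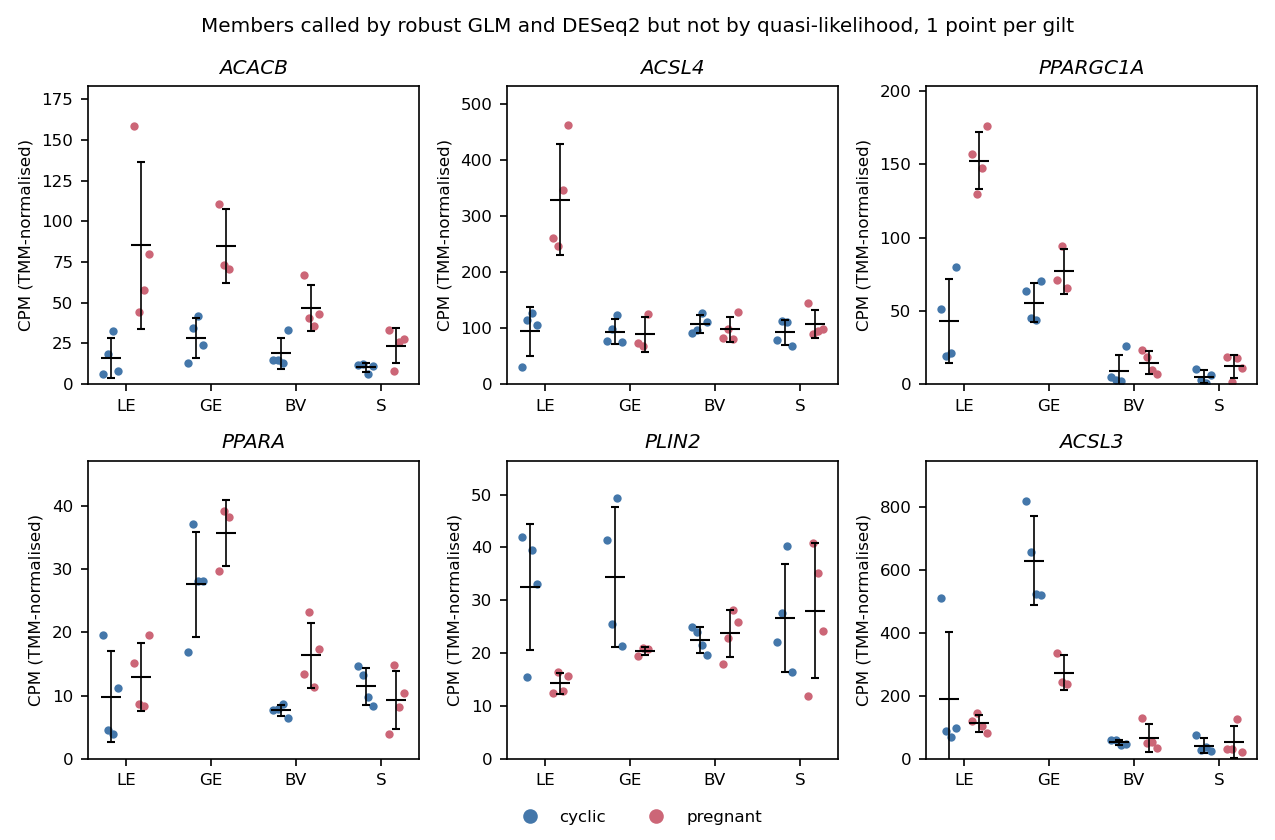
TMM-normalised CPM of 6 members that the robust GLM and DESeq2 called in at least 1 compartment where the quasi-likelihood test did not, 1 point per gilt, cyclic in blue and pregnant in red, with mean and SD (black), in each compartment (normalised within it). ACSL4 and PPARGC1A are higher in all 4 pregnant LE libraries than in any cyclic one.

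No gene of carnitine import and beta-oxidation was called between pregnant and cyclic gilts by any of the 3 tests in any compartment. These 12 genes had a median log2 fold change of 0.00 (LE), -0.21 (GE), 0.01 (BV) and 0.07 (S). The trifunctional protein genes HADHA and HADHB, for example, in LE had 94.7 and 80.5 CPM in cyclic and 92.1 and 84.7 CPM in pregnant gilts. The log2 fold changes farthest from 0 were those of ACADL in GE (75.3 ± 20.4 CPM in cyclic, n = 4, and 38.6 ± 11.9 CPM in pregnant gilts, n = 3, log2 fold change -0.96, SE 0.29) and of ACADS in S (10.1 ± 2.47 and 16.4 ± 2.43 CPM, 0.69, SE 0.23). CPT1A, the gatekeeper of mitochondrial import, had log2 fold changes of 0.53 in GE and -0.52 in S (SE 0.16 and 0.17), with values of 97.3 ± 14.8 and 140 ± 6.92 CPM in GE.

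Of the nuclear receptors and the coactivator, the robust GLM and DESeq2 called PPARGC1A in LE and PPARA in BV, and the robust GLM alone called PPARGC1A in BV, where the groups overlapped. PPARGC1A in LE had 51.2, 19.1, 21.4 and 80.1 CPM in cyclic and 157, 129, 148 and 176 CPM in pregnant gilts (log2 fold change 1.83, SE 0.43, adjusted p = 0.0274). The groups did not overlap, and without CL78, the highest of its group, the quasi-likelihood test called the gene (adjusted p = 0.00595). PPARA, the receptor that drives oxidation genes in liver, in BV had 7.68, 7.92, 8.64 and 6.52 CPM in cyclic and 13.5, 23.2, 11.4 and 17.4 CPM in pregnant gilts, without overlap (1.08, SE 0.26, adjusted p = 0.0380). Epithelial markers were higher in every pregnant than in every cyclic BV library. PPARA, ACACB and PNPLA2 moved the same way in BV, and FADS1 and SCD the opposite way. The part of the epithelial markers in these values was not tested. RXRA had positive fold changes in all 4 compartments, from 0.40 in LE to 0.88 in GE, and PPARD from 0.22 in GE to 0.61 in LE, with no call. PPARG was detectable in S only, with 3.09 CPM in cyclic and 4.94 CPM in pregnant gilts.

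In uptake and binding, the fatty acid transporter CD36 (gene 733702, chr9:99685748-99782296, minus strand) was called in GE at a low level. It had 5, 5, 6 and 7 counts (1.15, 1.25, 1.33 and 1.63 CPM) in cyclic and 23, 22 and 24 counts (4.87, 6.16 and 7.78 CPM) in pregnant gilts, and the groups did not overlap. It rose by 2.19 (SE 0.37, adjusted p = 0.0434), but leaving out any 1 of the 7 libraries ended the call (unadjusted p = 0.000669 to 0.00211). CD36 was called higher in S than in GE and had no call for pregnancy in S (3.42 to 14.8 CPM in cyclic and 13.4 to 17.6 CPM in pregnant gilts), where the groups overlapped. A neighbouring CD36-like gene, LOC100511343, had 730 counts in all libraries against 792 for CD36, so reads could be split between the copies.
LPL in LE had 8.71, 5.0, 7.44 and 11.7 CPM in cyclic and 13.8, 20.3, 10.5 and 52.1 CPM in pregnant gilts, with overlap and without a call. FABP5 was below the filter in LE, where it had 1.68 to 11.6 CPM in cyclic and 0.644 to 1.08 CPM in pregnant gilts, and was not tested there.

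In storage and lipolysis, PNPLA2 (gene 100049704, chr2:513065-517962, plus strand) was called in LE and BV. In LE it had 18.7, 16.1, 20.0 and 25.9 CPM in cyclic and 72.4, 60.8, 39.7 and 62.1 CPM in pregnant gilts, each pregnant value above each cyclic one. It rose by 1.54 (SE 0.23, adjusted p = 0.00473), and the call was lost without library CL40, CL42, PL139, PL39 or PL43 (adjusted p = 0.0150 to 0.0188). In BV the spread was small, with 17.0, 16.7, 17.8 and 17.5 CPM in cyclic and 33.0, 32.9, 34.4 and 40.9 CPM in pregnant gilts. PNPLA2 rose there by 1.03 (SE 0.14, adjusted p = 0.0130), a call that stood without any single library. In GE (28.4 to 49.6 CPM and 43.4 to 55.7 CPM) and S (12.5 to 23.1 CPM and 19.3 to 31.0 CPM) the groups overlapped.

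PLIN2 in LE, called by the robust GLM and DESeq2, had 42, 15.4, 39.5 and 33.1 CPM in cyclic and 12.4, 16.4, 12.8 and 15.6 CPM in pregnant gilts (log2 fold change -1.18, SE 0.30, adjusted p = 0.0383). CL40 lay within the pregnant range, and without it the adjusted p was 0.00934 and PLIN2 was called. MGLL in BV had 112 ± 61.0 CPM in cyclic and 59.6 ± 23.4 CPM in pregnant gilts, with overlap (-0.91, SE 0.37), while the smooth muscle markers, at 5203 to 16366 CPM in cyclic and 770 to 6785 CPM in pregnant BV, moved with it and their part was not tested. LPIN1, DGAT1 and LIPE were not called where they were detectable.

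The interaction of pregnancy and compartment was tested in the joint fit over 9727 genes and the 36 members detectable in all 4 compartments. At a false discovery rate of 1%, 3 members were called, where 3.05% of all genes were: ACSL4 (adjusted p = 0.00241), FASN (0.00348) and FADS1 (0.00539). ACSL4 had log2 fold changes of 1.80 (LE), -0.08 (GE), -0.13 (BV) and 0.21 (S). FASN had -1.35 in LE and -1.84 in GE against -0.20 in BV and -0.12 in S. FADS1 followed the order GE (-2.37), LE (-1.91), BV (-1.15) and S (-0.38). Without the gilt block ACSL4 was not called (adjusted p = 0.0112). When 1 gilt was left out of all compartments, ACSL4 was lost without the gilt of CL42, PL39 or PL43, FASN was called only without the gilt of CL128 or PL139, and FADS1 only without the gilt of PL139 (adjusted p up to 0.0147, 0.0407 and 0.0260).

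Single contrasts of LE against another compartment called ACSL4 and PNPLA2. The effect of pregnancy on ACSL4 was larger in LE by 1.98 than in GE (SE 0.38, adjusted p = 0.00398, 1.54% of all genes called), by 2.03 than in BV (SE 0.35, adjusted p = 0.00107, 3.37%) and by 1.64 than in S (SE 0.35, adjusted p = 0.00980, 1.48%). For PNPLA2 the effect in LE exceeded that in GE by 1.25 (SE 0.25, adjusted p = 0.00522). The interaction test over all compartments did not call PNPLA2 (adjusted p = 0.0110). With 1 gilt left out, that test called it only without the gilt of PL41 (adjusted p up to 0.0795). The opposite signs of ELOVL6 in LE and GE, a difference of 2.16 (SE 0.51), did not pass the threshold (adjusted p = 0.0182).

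**Figure D5:**
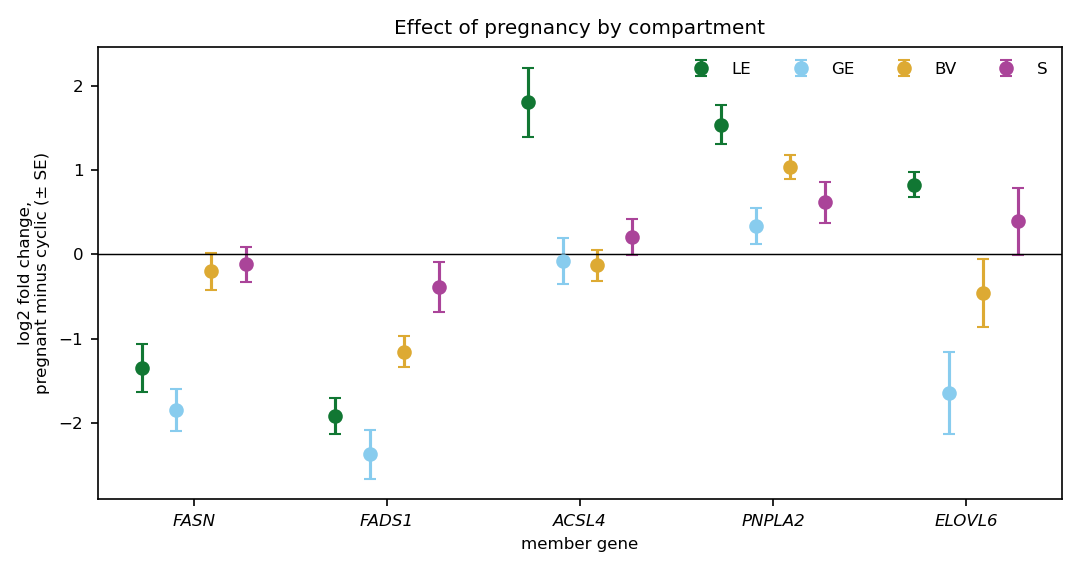
Log2 fold change, pregnant minus cyclic, with its SE for FASN, FADS1, ACSL4, PNPLA2 and ELOVL6 in LE, GE, BV and S. FASN lies between -1.35 and -1.84 in both epithelia and near 0 in BV and S, while ACSL4 stands at 1.80 in LE and near 0 elsewhere.

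A wider list of 114 genes of the same pathways was examined by count. Of these, 82 passed the filter for LE, 81 for GE, 76 for BV and 84 for S. The quasi-likelihood test of edgeR called 4 of them for LE, 1 for BV and 0 for GE and S. An unadjusted p under 0.05 was found for 24 of them in LE, where 26.9% of all genes had one, for 27 in GE (23.0% of all genes), for 25 in BV (28.5%) and for 12 in S (14.5%). SLC27A2, a transporter and very long-chain acyl-CoA synthetase, rose in LE from 4.48 ± 6.41 CPM in cyclic to 221 ± 42 CPM in pregnant gilts (log2 fold change 5.64, SE 0.83, adjusted p = 0.00446, n = 4 each). AGPAT5, an acyltransferase of phosphatidic acid synthesis, rose from 74.0 ± 14.6 to 275 ± 99.6 CPM and CROT, the peroxisomal carnitine octanoyltransferase, from 240 ± 47.6 to 519 ± 34.1 CPM in LE (1.89, SE 0.28, and 1.11, SE 0.18). ELOVL4, an elongase of very long chains, fell in LE from 8.82 ± 2.44 to 2.28 ± 0.332 CPM (-1.93, SE 0.32). In BV the caveolar gene CAV1 fell from 821 ± 66.3 to 451 ± 74.8 CPM (-0.86, SE 0.15).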

How the data were processed

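RNA of laser-captured cells was amplified and sequenced by the authors. Their steps were trimming (Trim Galore), alignment to the Sscrofa11.1 genome (Hisat2), removal of PCR duplicates and counting by NCBI gene (QuasR), in versions not given in the sources used here. The deposited values are whole counts without normalization, in a full and a filtered table for each compartment. Filtered counts were compared with edgeR 4.0.16 (R 4.3.3), TMM normalization and the quasi-likelihood F test, with Benjamini-Hochberg adjustment over all genes of the fit. The alternative tests were edgeR's robust GLM and DESeq2 1.42.0. Contrasts between compartments used 1 fit of all 31 libraries with the gilt number of the labels as a block, since the compartments were taken from the same animals. CPM within a compartment were TMM-normalised there, and CPM per kilobase used a joint normalization and the exon length in the NCBI annotation. Floors cover counting error only, and 3 counts over a group amount to 0.173 to 0.279 CPM. P-values of pregnant against cyclic gilts within a compartment measure the spread between gilts. Those of the joint fit measure the spread between libraries that is left after the gilt block. Scripts were tested on simulated data. Symbols were matched through the annotation, and 114 of 116 other pathway genes were found. Members and gene lists were chosen with earlier results of these data known. Members called by the main test, or by both alternative tests, were named with every library's value, and other members by the highest level or largest called difference of their role. Called members were FADS1, SCD, ELOVL6, FASN, CD36 and PNPLA2.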

Additional observations from a re-analysis of the deposited data

Results flagged for a closer look

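Of the 91 groups of 4 libraries formed by the 13 named members, 8 held a library apart from the others by Dixon's criterion. Chance alone sets about 1 in 20 groups of normally spread values apart. That rate need not hold for CPM, so the 8 cannot be weighed against it. In cyclic gilts these were ACACB in BV (33.02 CPM in CB78, next 14.72 CPM), SCD in GE (143.9 CPM in CG128, next 42.97 CPM), ACSL3 in LE (509.4 CPM in CL128, next 97.8 CPM), PPARGC1A in BV (25.68 CPM in CB78, next 4.8 CPM), CD36 in LE (5.753 CPM in CL78, next 1.716 CPM) and PNPLA2 in S (23.12 CPM in CS78, next 14.04 CPM). In pregnant gilts they were ACSL3 (127.6 CPM in PS41, next 30.46 CPM) and ACSL4 (143.9 CPM in PS139, next 98.0 CPM), both in S. Each of the 8 was the highest of its group.

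The effect of pregnancy differed between compartments for FASN (adjusted p = 0.00348), FADS1 (0.00539) and ACSL4 (0.00241) by the interaction test of edgeR's quasi-likelihood fit. The single contrasts differed for ACSL4 between LE and GE (0.00398), LE and BV (0.00107) and LE and S (0.0098), and for PNPLA2 between LE and GE (0.00522). The interaction test over all compartments did not call PNPLA2 (0.0110).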

How the results depend on the processing

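At a false discovery rate of 5% in each comparison the members called numbered 9 in LE, 5 in BV, 8 between BV and S and 8 by the interaction. With the robust GLM the counts were 9 for LE, 7 for GE, 6 for BV and 1 for S, and with DESeq2 they were 9, 7 and 5 for LE, GE and BV. With pregnant gilts only, 9 members were called between LE and GE, 17 between LE and S and 0 between BV and S, and with cyclic gilts only 12 between LE and S and 1 between BV and S, which is also the count over the genes detectable in all 4 compartments. Each of these settings has another threshold, another test, or fewer libraries or genes. Leaving out 1 library or gilt gave 1 to 4 members for LE, 1 to 2 for GE, 1 to 3 for BV, 0 for S, 15 to 18 between LE and GE, 2 to 4 between BV and S, 20 to 23 between LE and S, 21 to 23 between GE and S and 0 to 3 by the interaction. Without the replicate block for the gilt, 18 members were called between LE and GE, 2 between BV and S, 23 between LE and S, 22 between GE and S and 2 by the interaction, and ACSL4 was the interaction lost.

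Of 266 recomputed values of the named members in a compartment, 0 changed direction, 33 lost and 37 gained a call, and 196 stayed called or uncalled. Only 9 of the 21 named values had a main call to lose, and leaving out 1 library gave 30 of the 33 losses. Such calls were lost in 8 of 8 refits for ELOVL6 and 5 of 8 for PNPLA2 in LE. They were lost in 4 of 8 for SCD in LE and FADS1 in BV, and in 7 of 7 for CD36 and 2 of 7 for FASN in GE. FADS1 in LE and GE and PNPLA2 in BV lost none. The robust GLM and DESeq2 each gave 12 of the gains. These were fixed in advance, since the values without a main call were named because both tests called them. The wider false discovery rate of 5% gave 9 of the gains. RLE normalization ended the call of ELOVL6 in LE, and no filter those of ELOVL6 in LE and CD36 in GE. With 3 or 4 gilts in a group and low counts for CD36, FABP3, PPARG and DGAT2, small differences were not detectable at this depth.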
